A study of Homo sapiens with 6 samples.

Results

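The tubulin genes described here are 10 named genes of the tubulin family, and all 10 were found among the 17356 gene symbols of the deposited tables. They comprise 3 alpha-tubulin genes (TUBA1A, TUBA1B and TUBA1C), 6 beta-tubulin genes (TUBB, TUBB2A, TUBB2B, TUBB3, TUBB4B and TUBB6) and the gamma-tubulin gene TUBG1. They were found by symbol. RNA-seq was available from 6 libraries of C4-2B-ENZR, a human prostate cancer line of the C4-2B lineage that resists the prostate cancer drug enzalutamide. In 3 libraries, called siKIF15, the cells carried an siRNA against KIF15, which encodes a kinesin that acts in the mitotic spindle, and in the other 3, called NC, they carried a negative control siRNA. Both groups were the same resistant line, grown in serum-supplemented medium. The siRNA sequences, the time after transfection and the use of enzalutamide during the experiment are not given in the sources used here. Whether the 3 libraries of each group are separate cultures is not stated, and p-values cover the spread among these 6 libraries alone, which may be technical.

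Microtubules are hollow polymers of alpha- and beta-tubulin dimers, nucleated from rings that contain gamma-tubulin. Kinesins such as KIF15 walk along them, and taxane drugs used in prostate cancer bind beta-tubulin. Cells hold several near-identical alpha and beta isotypes in different proportions. TUBB and TUBB4B are the common beta isotypes of dividing cells, TUBB3 is the class III isotype best known from neurons and from taxane-resistant tumours, and TUBB6 is the class V isotype. Alpha- and beta-tubulin mRNAs are also under autoregulation: when free dimers are plentiful, TTC5 recognises the start of the nascent chain on the ribosome and, through SCAPER and the CCR4-NOT deadenylase, directs decay of the mRNA being translated.

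The start of each coding sequence is printed because it encodes the residues that this autoregulation reads and shows how alike the members are. The sequences are the first 30 coding bases of 1 GENCODE transcript per gene (release 29, GRCh38), 5′ to 3′, with the first 4 codons in capitals.
TUBA1A: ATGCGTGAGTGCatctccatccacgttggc
TUBA1B: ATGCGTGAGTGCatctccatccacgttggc
TUBA1C: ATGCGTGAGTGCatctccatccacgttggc
TUBB: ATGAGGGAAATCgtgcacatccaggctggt
TUBB2A: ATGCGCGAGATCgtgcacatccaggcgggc
TUBB2B: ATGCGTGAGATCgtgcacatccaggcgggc
TUBB3: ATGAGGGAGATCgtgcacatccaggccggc
TUBB4B: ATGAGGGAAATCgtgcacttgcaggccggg
TUBB6: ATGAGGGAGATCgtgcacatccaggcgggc
TUBG1: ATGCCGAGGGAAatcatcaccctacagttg

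The 3 alpha genes were identical over these 30 bases. Among the beta genes, TUBB4B matched TUBB in all of the first 12 bases, TUBB3 and TUBB6 each differed from TUBB at 1 base, and TUBB2A and TUBB2B each at 3. These base differences do not change the residues, as the first 4 codons of every beta gene encode Met-Arg-Glu-Ile. The gamma gene TUBG1 differed from TUBB at 8 of the 12. Over the whole coding sequence, TUBA1A and TUBA1B were 97.2% identical, TUBA1B and TUBA1C 96.8%, and TUBB2A and TUBB2B 98.2%. TUBB3 and TUBB6 were 87.6% identical to each other, and TUBB6 was 81.0% identical to TUBB.

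This likeness bears on how reads could be assigned, and the rule by which the authors counted reads shared between copies is not given in the sources used here. Of all 50-base windows of each transcript, the share also found in the transcript of another gene was 62.7% for TUBA1B, 41.1% for TUBA1A and 25.1% for TUBA1C. It was 65.5% for TUBB2A and 52.2% for TUBB2B, so the levels of these alpha and class II beta genes are uncertain. For TUBB6 it was 1.0%, for TUBB4B 9.9%, for TUBB 18.2% and for TUBG1 29.9%, mostly shared with its neighbour TUBG2. For TUBB3 only 8.7% of windows were found in another member, but 89.4% were found in AC092143.1. This annotated gene overlaps TUBB3 on the same strand and was not analysed here. The levels of TUBB3 and TUBG1 are therefore uncertain too. TUBA1A and TUBA1C also overlap at their ends on opposite strands, and whether strand was used in counting is not stated.

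The promoters of the 2 members with the largest called changes, TUBB3 and TUBB6, are shown because they went in opposite directions. Each is the 250 bases before the annotated start (RefSeq, GRCh38.p14), on the plus strand, with GC boxes, the letters GGGCGG or their reverse complement CCGCCC, in capitals. TUBB3 lies at chr16:89923092-89923341 and TUBB6 at chr18:12307991-12308240.
TUBB3: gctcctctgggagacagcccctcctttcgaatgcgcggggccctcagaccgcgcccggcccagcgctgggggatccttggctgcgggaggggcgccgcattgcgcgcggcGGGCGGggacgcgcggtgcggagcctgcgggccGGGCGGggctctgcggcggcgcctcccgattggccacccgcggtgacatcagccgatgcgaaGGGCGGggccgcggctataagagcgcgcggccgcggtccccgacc
TUBB6: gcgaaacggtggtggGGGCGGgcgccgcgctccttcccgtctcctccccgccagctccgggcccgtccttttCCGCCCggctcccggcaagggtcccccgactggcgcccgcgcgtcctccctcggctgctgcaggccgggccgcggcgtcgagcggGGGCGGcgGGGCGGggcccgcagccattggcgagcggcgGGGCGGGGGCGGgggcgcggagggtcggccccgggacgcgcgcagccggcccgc

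In windows of 300 bases (250 before and 50 after the start), both strands were searched for GGGCGG, for the TATA box letters TATAAA, for CCAAT and for the core of the interferon-stimulated response element, which is GAAA, any 2 bases and GAAA. TUBB3 held 5 GC boxes and TUBB6 held 6, each with 1 CCAAT and neither with TATAAA. Over 35116 promoters of the same length, 45.0% held a GC box, 34.6% a CCAAT, 11.5% TATAAA and 3.6% the interferon element. Of the other 8 members, 6 held a GC box and 6 a CCAAT, TUBB2A alone held TATAAA, and none of the 10 held the interferon element. A match describes letters in this window and is not a measured binding site.

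The deposited values, here called signal, are 1 number per gene symbol and library on the authors' own scale. They are not whole numbers and are not divided by gene length, and the sequencing depth behind them is unknown. Changes are given as log2 differences of signal + 1, siKIF15 minus NC, which understates the change of low genes; a gene was called where limma's adjusted p (Benjamini-Hochberg over the 16548 genes tested) was under 0.05. The values of a library summed to between 49460840 and 53157388, which is not a depth. The siKIF15 libraries differed among themselves in ways tied to transcript properties. Across 13218 genes, the deviation of siKIF15 1, 2 and 3 from their group mean had a Spearman correlation with transcript GC content of 0.45, 0.43 and -0.64, and with transcript length of 0.04, -0.52 and 0.43. Library siKIF15 3 was the lowest of its group for 9 of the 10 members, against 39.6% of 13632 genes. Library siKIF15 2 was the highest for 8, against 36.8% of those genes. The calls among the members are therefore given with and without siKIF15 2 and siKIF15 3. Of the luminal prostate markers all 11 were listed, among them KLK3 (prostate-specific antigen) at a mean of 68868.6 in siKIF15 and 64846.0 in NC, so the label of a luminal prostate line fits both groups.

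The targeted gene was read first. The signal of KIF15 (GRCh38, chromosome 3, bases 44761717 to 44873376) was 294.8, 333.1 and 363.0 in the siKIF15 libraries, which carry the knockdown label, against 366.4, 403.6 and 319.0 in NC. The groups overlapped, with a log2 change of -0.13 ± 0.14 (SE) and a 95% interval from -0.43 to 0.16 (limma adjusted p = 0.57). The mRNA values therefore do not show the knockdown that the labels state, and every direction below is between libraries as labelled, with siKIF15 standing for the libraries labelled KIF15 knockdown.

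Among the 10 tubulin genes, TUBB6, TUBA1C and TUBG1 were higher in siKIF15 than in NC, TUBB3 was lower, and 6 were not called. The background in the same fit was 18.0% of all genes called in either direction, 9.66% higher and 8.33% lower. Of these calls 53.7% were higher, but 40.7% with libraries scaled to equal totals and 35.4% after a correction of each library for GC content and transcript length. All 10 members passed the filter on low values. The median of their log2 changes was 0.13, beside -0.004 over all genes tested, and it was -0.02 after the GC and length correction. In 6 members every siKIF15 library lay above every NC library, in 1 every siKIF15 library lay below, and in 3 the groups overlapped; over all genes tested 34.8% did not overlap, 18.3% above and 16.5% below. In bulk RNA, a change in the number of cells of some kind and a change in RNA per cell cannot be told apart.

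**Figure D1:**
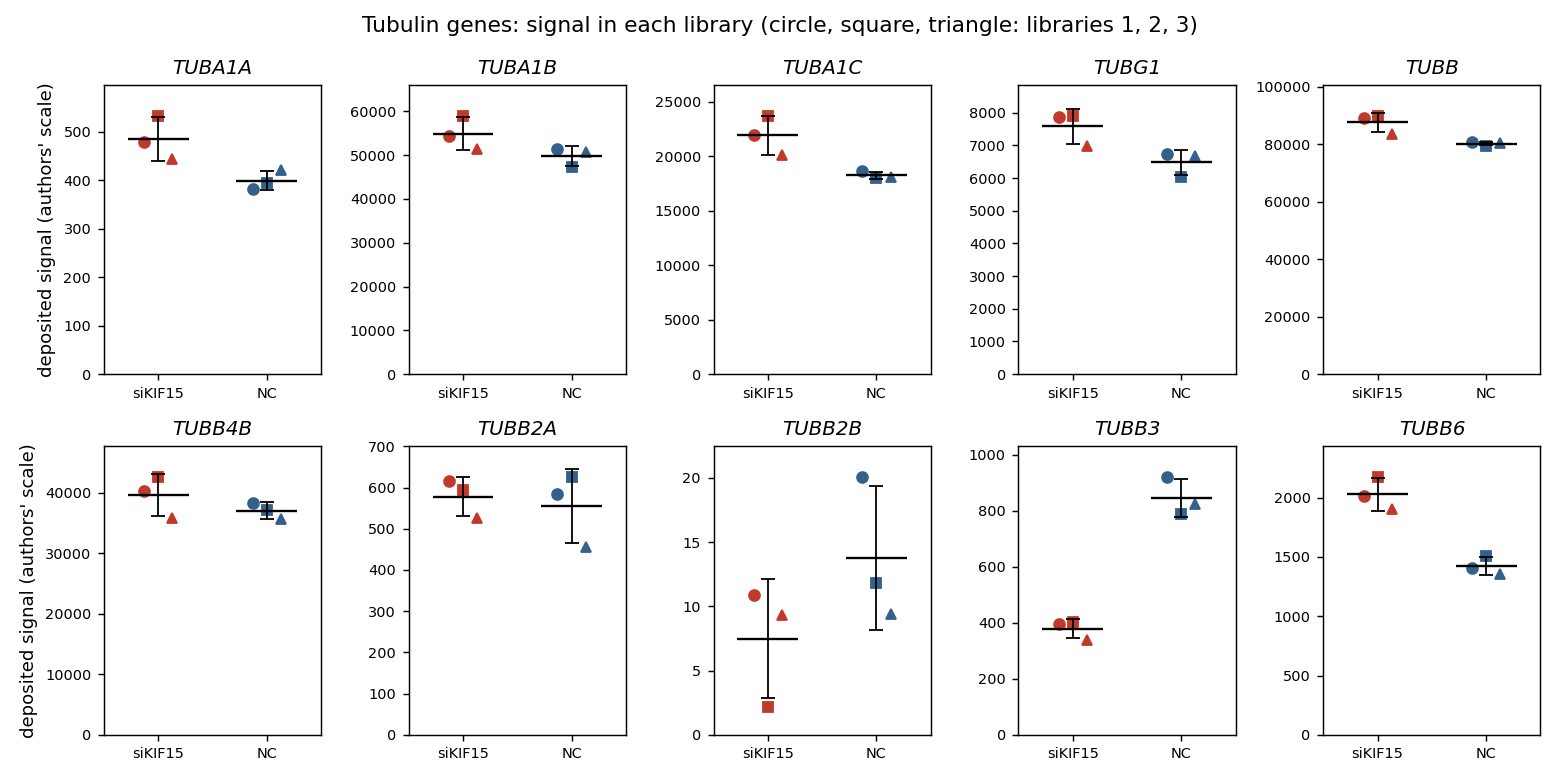
Deposited signal (vertical axis, authors' scale, from 0) of each of the 10 tubulin genes in the 3 siKIF15 libraries (red, left) and the 3 NC libraries (blue, right); lines are group means and bars are 1 SD. TUBB3 stands between 339.6 and 401.9 in siKIF15 and between 789.3 and 921.3 in NC, and TUBB6 lies the other way round, between 1899.4 and 2176.1 in siKIF15 and between 1352.9 and 1505.2 in NC.

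TUBB3 (chromosome 16, 89921392 to 89938761, plus strand) was the only called member that was lower, and its change was by far the largest of the called members. Its signal was 393.9, 401.9 and 339.6 in siKIF15, against 921.3, 789.3 and 825.2 in NC. Every siKIF15 library was below every NC library, and the gap between the groups was larger than the range within either. The means were 378.5 ± 33.9 in siKIF15 and 845.3 ± 68.2 in NC (SD, n = 3 each), a 2.23-fold lower level. The log2 change was -1.16 ± 0.12 (SE; 95% interval from -1.4 to -0.91; limma adjusted p = 3.9e-06). Relative to the NC mean, the single libraries stood at -1.1, -1.07 and -1.31, so the fall was similar in each. The log2 change was -1.2 without siKIF15 2 and -1.08 without siKIF15 3 (limma adjusted p = 4.4e-06 and 7.1e-06), and TUBB3 was called in all 17 alternative settings, with log2 changes between -1.33 and -1.08. MC1R, the melanocortin receptor gene whose annotation ends just before TUBB3 on the same strand, was looked up after the values of TUBB3 had been seen. It stood at 410.9, 412.4 and 363.3 in siKIF15, against 422.2, 378.9 and 407.5 in NC, with overlapping groups (log2 change -0.03 ± 0.12, SE; 95% interval -0.29 to 0.23; limma adjusted p = 0.9).

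TUBB6 (chromosome 18, 12307669 to 12344320, plus strand) rose. It stood at 2012.5, 2176.1 and 1899.4 in siKIF15, against 1403.9, 1505.2 and 1352.9 in NC. The lowest siKIF15 library was above the highest NC library. The means were 2029.3 ± 139.1 in siKIF15 and 1420.7 ± 77.5 in NC (SD, n = 3 each), 1.43-fold higher, with a log2 change of 0.51 ± 0.08 (SE; 95% interval from 0.33 to 0.69; limma adjusted p = 0.00058). It was 0.46 without siKIF15 2 and 0.56 without siKIF15 3 (limma adjusted p = 0.0018 and 0.00011), and TUBB6 too was called in all 17 alternatives, with log2 changes between 0.35 and 0.56. Since these 2 genes moved in opposite directions, their ratio was computed after the values had been seen. The signal of TUBB6 was 5.11, 5.41 and 5.59 times that of TUBB3 in the siKIF15 libraries, against 1.52, 1.91 and 1.64 times in NC. The ratio averaged 5.37 ± 0.245 in siKIF15 and 1.69 ± 0.197 in NC (SD, n = 3 each; exact two-sided permutation p = 0.1, the smallest that 3 against 3 allows). It is a ratio of signals not corrected for length, and it does not depend on how libraries were scaled to each other. TUBB6 and TUBB3 had each already separated between the groups, in opposite directions. Their ratio therefore had to separate too, and its p was fixed in advance.

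The 2 abundant beta genes did not pass the test. TUBB (chromosome 6, 30720201 to 30725426), the member with the highest signal, stood at 89246.6, 89891.6 and 83708.6 in siKIF15, against 80720.2, 79542.7 and 80395.4 in NC. All siKIF15 libraries lay above all NC libraries, but the log2 change was small at 0.13 ± 0.07 (SE; 95% interval from -0.03 to 0.29; limma adjusted p = 0.28), and quantile normalization turned it to -0.08. TUBB4B (chromosome 9, 137241213 to 137243707) stood at 40267.9, 42695.2 and 35838.2 in siKIF15, against 38421.8, 37165.3 and 35650.4 in NC. Its groups overlapped through siKIF15 3, which was at the level of the NC libraries. The log2 change was 0.09 ± 0.08 (SE; 95% interval from -0.07 to 0.26; limma adjusted p = 0.47), and it was -0.06 after quantile normalization and -0.12 after the GC and length correction.

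TUBB2A and TUBB2B, the class II pair that is prominent in neurons and lies close together on chromosome 6, were far lower than TUBB and were not called. TUBB2A (3153669 to 3157526, minus strand) stood at 615.1, 593.1 and 526.3 in siKIF15, against 583.7, 626.3 and 455.3 in NC. The groups overlapped, with both the highest and the lowest library in NC, and the log2 change was 0.07 ± 0.13 (SE; 95% interval from -0.21 to 0.35; limma adjusted p = 0.77), or -0.15 after the GC and length correction. TUBB2B (3224261 to 3231730, minus strand) was close to the bottom of the scale, at 10.9, 2.2 and 9.3 in siKIF15, against 20.1, 11.8 and 9.4 in NC. Library siKIF15 2 was the lowest and NC 1 the highest, and the lowest NC library lay within the range of siKIF15. The log2 change of -0.95 ± 0.55 (SE) had a 95% interval from -2.13 to 0.23 (limma adjusted p = 0.27), so its size is poorly known.

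**Figure D2:**
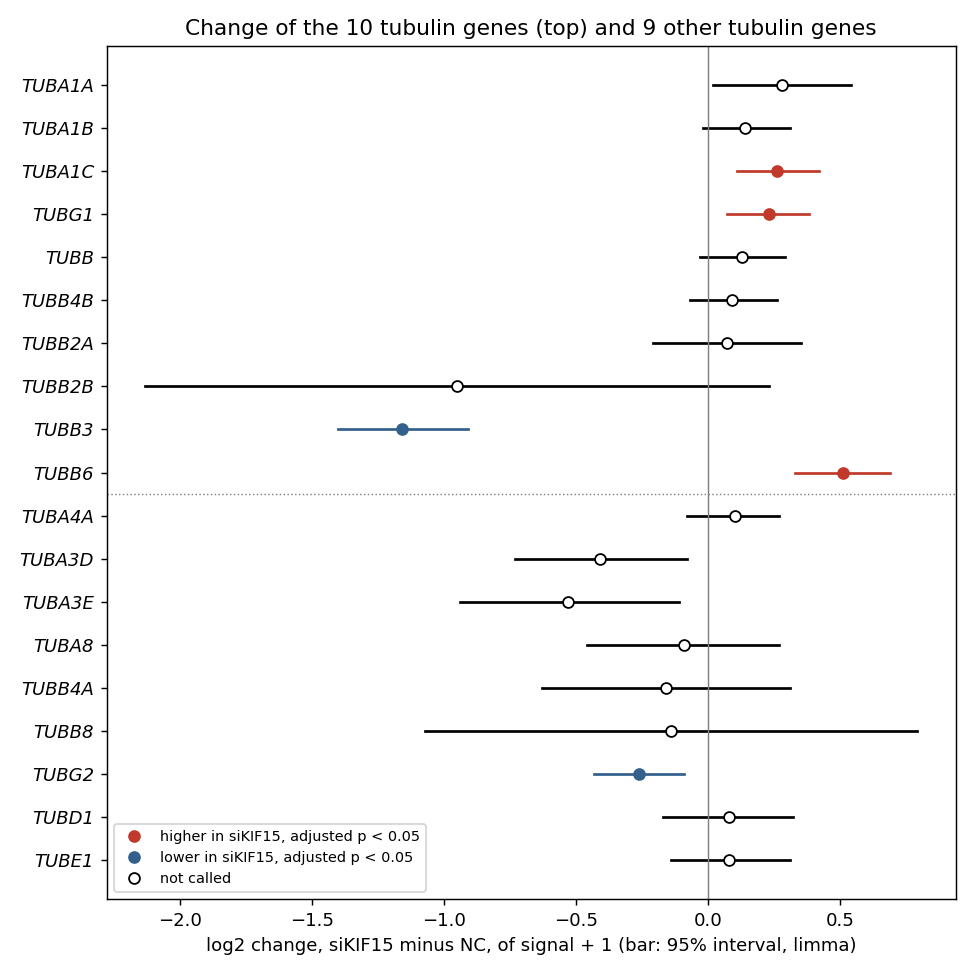
Log2 change of signal + 1, siKIF15 minus NC (horizontal axis), with limma's 95% interval, for the 10 tubulin genes (above the dotted line) and 9 other tubulin genes; TUBA3C, near 0 in most libraries, is not drawn. Filled points passed an adjusted p of 0.05: TUBB3 (-1.16) and TUBG2 (-0.26) below 0, and TUBB6 (0.51), TUBA1C (0.26) and TUBG1 (0.23) above it.

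The 3 alpha genes lie together on chromosome 12 and all had higher means in siKIF15, but 1 of them, TUBA1C, was called. TUBA1C (49188736 to 49274603, plus strand) stood at 21961.3, 23690.3 and 20064.0 in siKIF15, against 18604.6, 17966.4 and 18102.4 in NC. The groups did not overlap, and the NC libraries lay close together while the siKIF15 libraries were spread, with siKIF15 3 lowest. The means were 21905.2 ± 1813.8 in siKIF15 and 18224.4 ± 336.2 in NC (SD, n = 3 each), 1.2-fold higher, with a log2 change of 0.26 ± 0.07 (SE; 95% interval from 0.11 to 0.42; limma adjusted p = 0.02). The call was lost in 6 of 17 alternatives: without limma's variance trend (adjusted p = 0.13) and without siKIF15 1 (0.11), siKIF15 2 (0.054), NC 1 (0.072), NC 2 (0.11) or NC 3 (0.098). The log2 change was 0.2 without siKIF15 2 and 0.32 without siKIF15 3, where it was called (limma adjusted p = 0.00071).

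TUBA1B (49127782 to 49131397, minus strand), which gives most of the alpha-tubulin signal, stood at 54373.8, 58954.7 and 51478.3 in siKIF15, against 51353.9, 47204.2 and 50690.6 in NC. The groups did not overlap, although siKIF15 3 was only just above NC 1. The log2 change was 0.14 ± 0.08 (SE; 95% interval from -0.02 to 0.31; limma adjusted p = 0.23), and the GC and length correction turned it to -0.04. TUBA1A (49184796 to 49189324, minus strand), the alpha gene best known from developing brain, stood at 478.7, 532.4 and 443.7 in siKIF15, against 381.4, 393.7 and 419.9 in NC. Again no siKIF15 library reached down to the NC range. The log2 change was 0.28 ± 0.12 (SE; 95% interval from 0.02 to 0.54), as large as that of TUBA1C but less precise, with a limma adjusted p of 0.13. Without siKIF15 3, TUBA1A (log2 change 0.34, limma adjusted p = 0.038) and TUBA1B (0.19, adjusted p = 0.043) were also called, making 5 members higher and 1 lower, in a fit that called 5077 genes in all against 2978 with that library. Without siKIF15 2 the fit called 2187 genes, and of the members 1 was higher (TUBB6) and 1 lower (TUBB3).

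TUBG1 (chromosome 17, 42609676 to 42615234, plus strand), the gamma-tubulin of the nucleating ring, stood at 7867.1, 7899.9 and 6970.1 in siKIF15, against 6723.9, 6037.3 and 6669.7 in NC. The groups did not overlap, with siKIF15 3 nearest to NC. The means were 7579.0 ± 527.6 in siKIF15 and 6476.9 ± 381.7 in NC (SD, n = 3 each), 1.17-fold higher, with a log2 change of 0.23 ± 0.07 (SE; 95% interval from 0.07 to 0.38; limma adjusted p = 0.046). The call was lost in 11 of 17 alternatives. The adjusted p was 0.11 with libraries scaled to equal totals and 0.18 without the variance trend, it ran from 0.099 to 0.22 when any library but siKIF15 3 was left out (0.1 without siKIF15 2, 0.0029 without siKIF15 3), and after the GC and length correction the log2 change was 0.01. TUBG2, the second gamma-tubulin gene beside it on the chromosome, went the other way, at 2034.2, 2013.3 and 1887.0 in siKIF15, against 2476.1, 2182.9 and 2450.4 in NC. Every siKIF15 library was below every NC library, and the log2 change was -0.26 ± 0.08 (SE; limma adjusted p = 0.035); the call was lost in 5 of 17 alternatives, among them without siKIF15 1 (0.1), NC 1 (0.17) or NC 3 (0.16), and after the GC and length correction it was -0.46 (adjusted p = 1.9e-05). The ratio of TUBG1 to TUBG2, computed after these values had been seen, was 3.87, 3.92 and 3.69 in siKIF15, against 2.72, 2.77 and 2.72 in NC (exact two-sided permutation p = 0.1, the smallest possible). As TUBG1 and TUBG2 had already separated in opposite directions, this p too was fixed in advance.

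**Figure D3:**
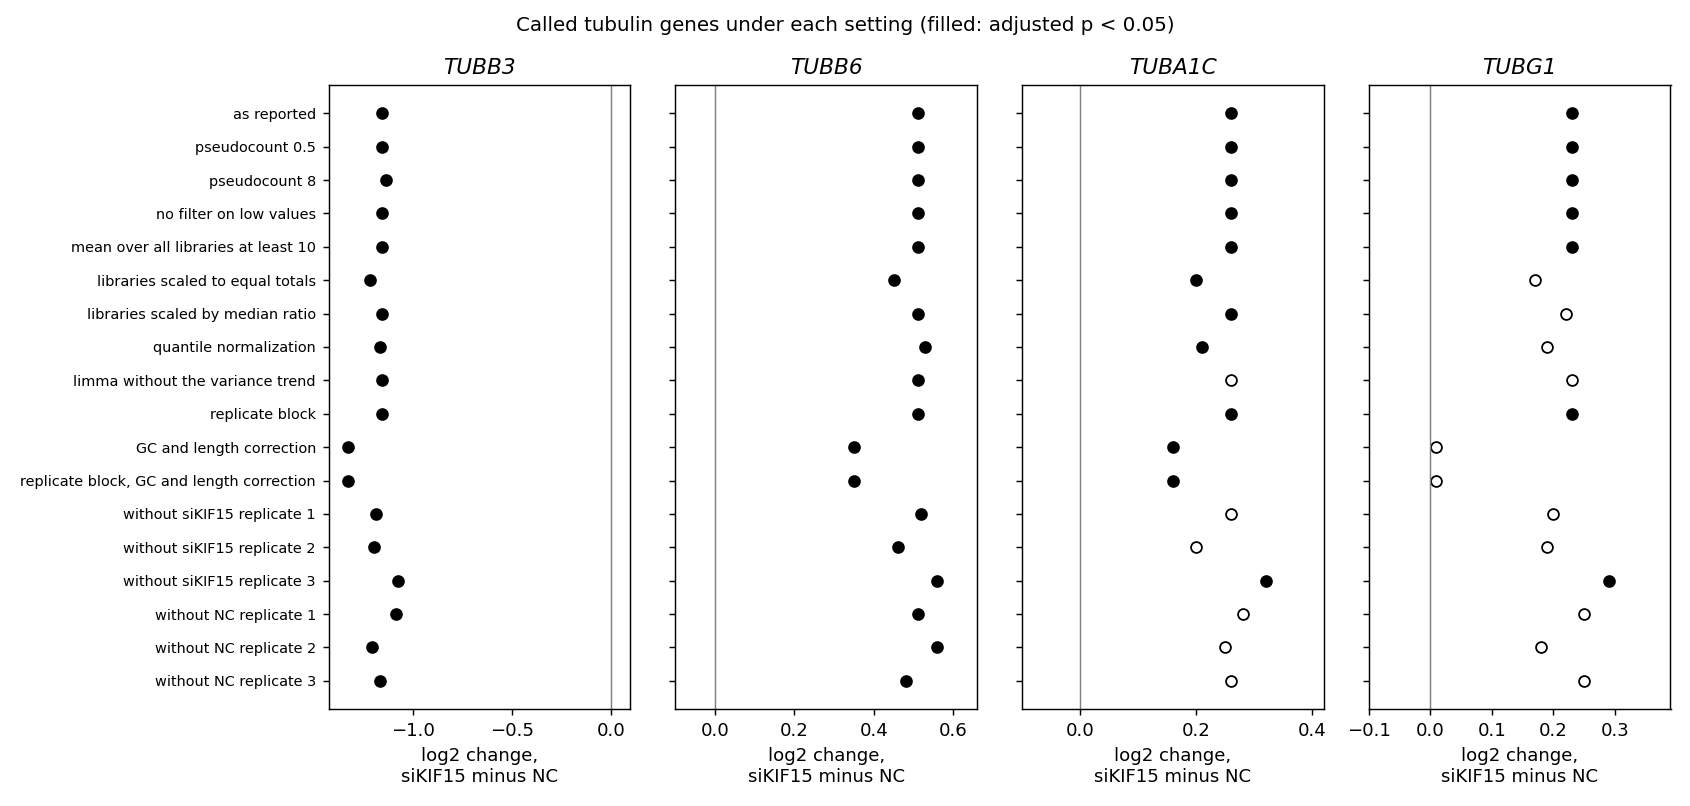
Log2 change, siKIF15 minus NC (horizontal axes, each with its own range and a line at 0), of the 4 called tubulin genes as reported and under 17 alternative settings (rows); filled points passed an adjusted p of 0.05. TUBB3 and TUBB6 are filled in every row, whereas TUBA1C is open in 6 and TUBG1 in 11 rows, and TUBG1 lies at 0.01 after the GC and length correction.

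How the signal was divided among the members was described by sums and shares within each library. Alpha and beta signal here mean the sums over the 3 alpha and the 6 beta members, not divided by transcript length. They are not the whole pool: TUBA4A, which is not among the 10 genes, averaged 10655.5 in siKIF15 and 9917.7 in NC. The 10 genes together summed to 217227.9, 226837.3 and 201277.5 in siKIF15, against 199134.8, 191242.2 and 194571.3 in NC. The groups did not overlap, and siKIF15 3 was only slightly above NC 1. The means were 215114.2 ± 12910.4 in siKIF15 and 194982.7 ± 3962.3 in NC (SD, n = 3 each), a ratio of 1.1 (exact two-sided permutation p = 0.1, the smallest possible). As a percent of all signal in a library, the sum was 0.417, 0.427 and 0.4 in siKIF15, against 0.398, 0.386 and 0.393 in NC. The ratio was 1.13 for the 3 alpha genes and 1.08 for the 6 beta genes (exact p = 0.1 each). For all 10 it was 1.14 without siKIF15 3, 1.07 without siKIF15 2 and 1.06 with libraries scaled to equal totals. With equal totals it was 1.08 for the alpha genes (exact p = 0.1) and 1.04 for the beta genes (exact p = 0.2). The beta groups then overlapped, as the beta sum was 0.243% of all signal in siKIF15 3 and 0.244% in NC 1. With libraries scaled by median ratio the beta ratio was 1.08 (exact p = 0.2).

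Of the beta signal, TUBB and TUBB4B made up nearly all. TUBB held 67.3, 66.2 and 68.4% of it in siKIF15, against 66.1, 66.5 and 67.7% in NC, and TUBB4B held 30.4, 31.4 and 29.3% in siKIF15, against 31.5, 31.1 and 30% in NC. For both, the groups overlapped (exact two-sided permutation p = 0.6 each). TUBB3 held 0.297, 0.296 and 0.278% in siKIF15, against 0.755, 0.66 and 0.695% in NC, a difference of -0.41 percentage points that left the main isotypes with almost the same shares. TUBB6 held 1.52, 1.6 and 1.55% in siKIF15, against 1.15, 1.26 and 1.14% in NC, a difference of 0.38 points. For TUBB3 and TUBB6 the groups did not overlap (exact p = 0.1 each, or 0.18 after Benjamini-Hochberg adjustment over the 9 shares). The signal of TUBB3 had already separated in the opposite direction to the beta sum, and that of TUBB6 by more than the beta sum differed. Both shares therefore had to separate, and these p-values were fixed in advance. Within the alpha signal, TUBA1C held 28.6, 28.5 and 27.9% in siKIF15, against 26.4, 27.4 and 26.2% in NC, and TUBA1B was lower by about as much, at 70.8, 70.9 and 71.5% in siKIF15, against 73, 72 and 73.2% in NC (exact p = 0.1 each; adjusted 0.18). TUBA1A had under 1% of the alpha signal in every library. The shares of TUBA1B and TUBA1C therefore mirror each other, and their tests are not separate results. The mean signal of TUBA1B was itself higher in siKIF15, at 54935.6 against 49749.6 in NC.

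**Figure D4:**
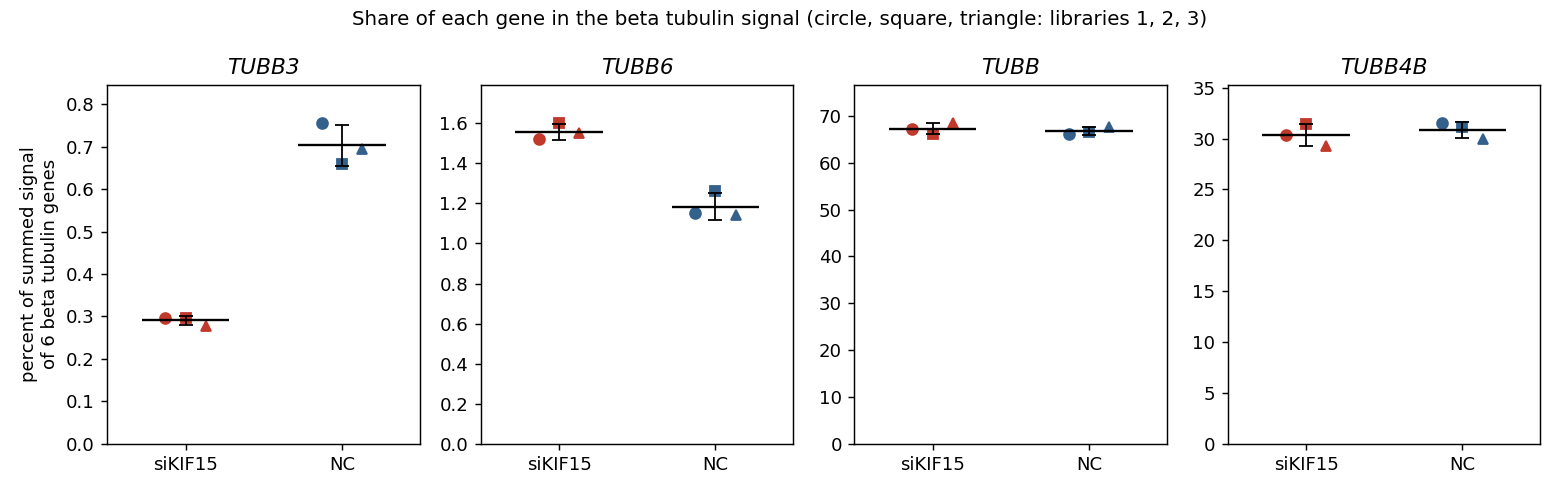
Percent of the summed signal of the 6 beta-tubulin genes (vertical axes, from 0, each with its own range) held by TUBB3, TUBB6, TUBB and TUBB4B in the 3 siKIF15 libraries (red, left) and the 3 NC libraries (blue, right); lines are means and bars are 1 SD. TUBB3 lies near 0.29% in siKIF15 and 0.703% in NC, TUBB6 near 1.56% in siKIF15 and 1.18% in NC, and TUBB and TUBB4B overlap between the groups.

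To compare levels between members, the signal was divided by the length in kilobases of 1 annotated transcript per gene. On this scale TUBA1B and TUBB led, at 33765 ± 2317 and 32815 ± 1273 signal per kilobase in siKIF15 and at 30577 ± 1370 and 30045 ± 228 in NC (SD, n = 3 each), and their libraries overlapped in both groups. TUBB4B followed at 24191 in siKIF15 and 22651 in NC, then TUBA1C at 7299 in siKIF15 and 6073 in NC, and TUBG1 at 4705 in siKIF15 and 4020 in NC. These 5 genes lay between percentiles 93.9 and 99.4 of the 16758 genes ranked, over both groups. TUBB6 was next, at 983 ± 67.4 in siKIF15 and 688 ± 37.6 in NC. TUBB3 was the ninth of the 10 in siKIF15, at 214 ± 19.2, below TUBB2A (362 ± 29) and TUBA1A (253 ± 23.3), whereas in NC it was the seventh, at 478 ± 38.6, above TUBB2A (348 ± 55.8) and TUBA1A (208 ± 10.3). In percentiles of all ranked genes, the level of TUBB3 stood at 50.7 in siKIF15 and 64.2 in NC. Apart from TUBA1B and TUBB, no neighbours in either order overlapped.

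Of 12 other tubulin genes in the list, 10 had a row and were tested, and TUBG2, described above, was the 1 that was called; the median log2 change was -0.12. After the GC and length correction 3 were lower, TUBA3D and TUBA3E besides TUBG2. The testis-type alpha genes TUBA3D (mean 262.1 in siKIF15, 343.8 in NC) and TUBA3E (116.9 in siKIF15, 168.9 in NC) had log2 changes of -0.41 and -0.53 that missed the threshold (limma adjusted p = 0.081 and 0.074), although their groups did not overlap. After the correction they were -0.63 and -0.75 (limma adjusted p = 0.0024 and 0.0061); TUBA3D also passed without siKIF15 2 (0.024) and TUBA3E after quantile normalization (0.03). TUBA4A, an alpha gene known from platelets and neurons and here the most abundant of this list, averaged 10655.5 in siKIF15 and 9917.7 in NC (log2 change 0.1, limma adjusted p = 0.47; -0.06 after the GC and length correction, and 0.2 with an adjusted p of 0.016 without siKIF15 3). TUBA8, TUBB4A and TUBB8 averaged 138.8, 84.5 and 13.3 in siKIF15 and 148.1, 95.2 and 14.6 in NC. The delta- and epsilon-tubulin genes of centrioles, TUBD1 and TUBE1, averaged 512.8 and 674.7 in siKIF15 and 485.5 and 634.9 in NC. TUBA3C was near 0 in all but 1 library of each group.

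Genes that nucleate, fold or regulate tubulin were examined as lists, read against the background of 9.66% higher and 8.33% lower. The GC and length correction, in which 1718 genes were higher and 3131 lower among 16033, is given beside each list. Of the 13 genes of the gamma-tubulin ring complex and its anchors, AKAP9, a Golgi and centrosome scaffold, was the 1 called. It stood at 476.3, 428.6 and 737.1 in siKIF15, against 693.9, 915.1 and 893.7 in NC. The groups overlapped because siKIF15 3 lay above NC 1, and the log2 change was -0.64 ± 0.17 (SE; limma adjusted p = 0.017); the call was lost without siKIF15 1 (0.16), siKIF15 2 (0.063), NC 2 (0.14) or NC 3 (0.079), and without the variance trend (0.18). The correction left AKAP9 at -0.34 (adjusted p = 0.029), with 0 higher and 2 lower calls in the list. The median of the list was -0.01, and without siKIF15 3 it had 2 higher and 1 lower call, in a fit with 2537 higher and 2540 lower calls among 16573 genes.

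Of the 12 listed folding cofactors and prefoldin subunits, 2 were higher, 1 was lower and the median log2 change was 0.02; after the GC and length correction 0 were higher and 6 lower. PFDN5, a prefoldin subunit that hands unfolded tubulin to the chaperonin, averaged 13604.8 ± 987.1 in siKIF15 and 10873.5 ± 239.2 in NC (SD, n = 3 each; log2 change 0.32, limma adjusted p = 0.0049), but the GC and length correction left 0.04. TBCA, which captures beta-tubulin, averaged 7197.1 in siKIF15 and 6285.2 in NC (log2 change 0.2, limma adjusted p = 0.049), and its call was lost in all but 4 of 17 alternatives. TBCEL, which destabilises tubulin, averaged 1113.4 in siKIF15 and 1444.8 in NC (log2 change -0.39, limma adjusted p = 0.021); this call was lost when any library but siKIF15 3 was left out (adjusted p from 0.064 to 0.16). Of the 8 subunits of the CCT chaperonin, which folds tubulin, none was called and the median was -0.04, but 5 were called lower after the GC and length correction, and 1 with libraries scaled to equal totals, by median ratio or by quantiles. The subunit with the smallest adjusted p, TCP1, averaged 8544.0 in siKIF15 and 9809.7 in NC (log2 change -0.2, limma adjusted p = 0.053).

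Of the 3 genes of the autoregulation pathway, none was called as reported, and CNOT11 and SCAPER were called in some alternatives. TTC5, the ribosome-bound sensor, stood at 1230.4, 1326.1 and 1156.6 in siKIF15, against 1341.6, 1385.3 and 1326.5 in NC (log2 change -0.13, limma adjusted p = 0.35). SCAPER, the adaptor, stood at 559.0, 571.3 and 663.2 in siKIF15, against 644.8, 800.8 and 719.2 in NC (log2 change -0.27, limma adjusted p = 0.13). CNOT11, the CCR4-NOT subunit that SCAPER engages, stood at 3370.8, 3506.7 and 3555.1 in siKIF15, against 4218.5, 3911.0 and 3706.5 in NC (log2 change -0.18, limma adjusted p = 0.1). All 3 means were lower in siKIF15. The groups did not overlap for TTC5 and CNOT11 and overlapped for SCAPER. Over all genes tested, 16.5% had every siKIF15 library below NC. A shift of these 3 genes as a set was not tested. Without siKIF15 3, SCAPER (log2 change -0.35, limma adjusted p = 0.027) and CNOT11 (-0.2, adjusted p = 0.036) were called lower and TTC5 (-0.08, adjusted p = 0.46) was not. That fit had 2540 lower calls among 16573 genes. CNOT11 was also called lower after the GC and length correction (log2 change -0.26, limma adjusted p = 0.0018) and with equal totals (-0.24, adjusted p = 0.035).

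Of 21 tubulin-modifying enzymes, TTLL6 was higher and TTLL7 lower, both tubulin polyglutamylases, and the median log2 change was 0.05. TTLL6 averaged 105.2 in siKIF15 and 60.6 in NC (log2 change 0.84, limma adjusted p = 0.048), and TTLL7 averaged 1010.8 in siKIF15 and 1254.0 in NC (log2 change -0.32, limma adjusted p = 0.049). Both stood at the edge of the threshold, and the calls were lost in 10 and 12 of 17 alternatives; without siKIF15 3 the list had 3 higher and 3 lower calls, and after the GC and length correction 0 higher and 3 lower. Of 18 microtubule-binding proteins tested, 1 was higher and 4 were lower, with a median of -0.07. MAP1B, a microtubule-stabilising protein of growing axons, stood at 3809.5, 3074.8 and 4528.7 in siKIF15, against 5871.0, 5944.2 and 6341.0 in NC. Every siKIF15 library was well below NC, and the log2 change was -0.69 ± 0.11 (SE; 95% interval from -0.91 to -0.46; limma adjusted p = 0.00035), a call lost, of 17 alternatives, only without the variance trend (0.067); the GC and length correction left -0.46 (adjusted p = 1.1e-05).

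The other microtubule-binding genes that passed the test changed less. MAP1S, a relative of MAP1B, averaged 3570.8 in siKIF15 and 2784.0 in NC (log2 change 0.36, limma adjusted p = 0.0041). The dendritic protein MAP2 averaged 203.5 in siKIF15 and 285.6 in NC (log2 change -0.5, limma adjusted p = 0.036). EML4 averaged 989.2 in siKIF15 and 1230.2 in NC (log2 change -0.32, limma adjusted p = 0.042), and CLASP2, which tracks growing microtubule ends, averaged 1790.1 in siKIF15 and 2209.4 in NC (log2 change -0.31, limma adjusted p = 0.043). Each of the 3 lower calls was lost when any library but siKIF15 3 was left out, with adjusted p-values between 0.085 and 0.18, and that of MAP1S without siKIF15 1 (0.053) or the variance trend (0.065). After the GC and length correction MAP2 (-0.28, limma adjusted p = 0.11) and CLASP2 (-0.15, adjusted p = 0.069) were no longer called and EML4 was at -0.21 (adjusted p = 0.032), so the list had 1 higher and 2 lower calls; without siKIF15 3 the list had 1 higher and 6 lower calls.

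**Figure D5:**
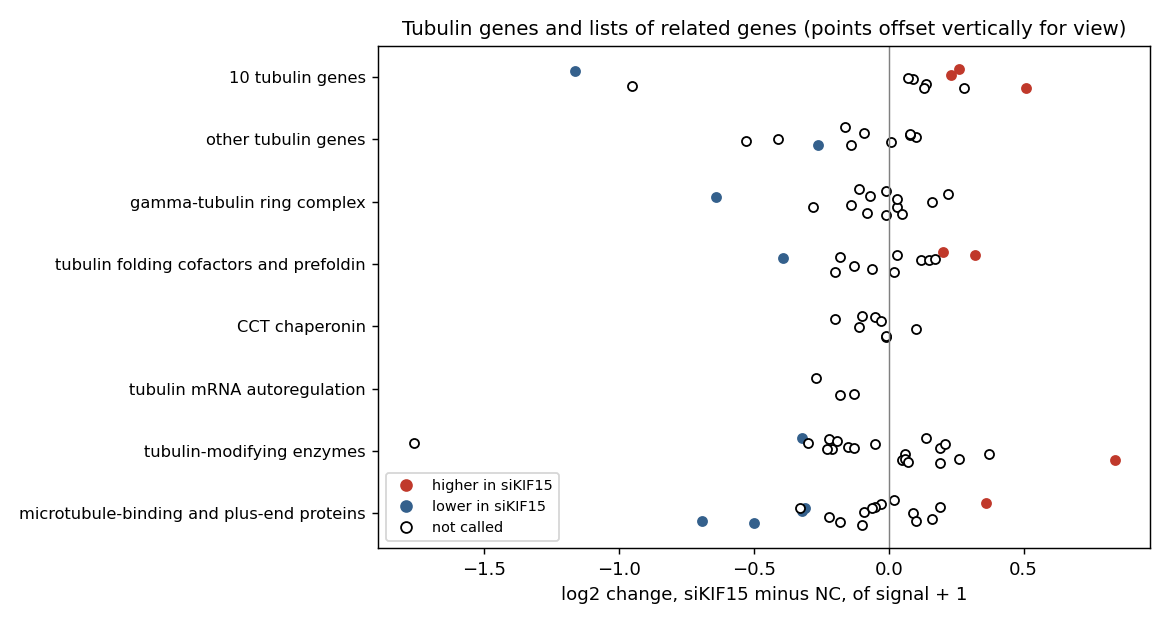
Log2 change of signal + 1, siKIF15 minus NC (horizontal axis), of the 10 tubulin genes and of 7 lists of related genes (rows); each point is a gene and the vertical offset has no meaning. Filled points passed an adjusted p of 0.05; the lowest filled point among the tubulin genes is TUBB3 (-1.16), and the lowest among the microtubule-binding proteins is MAP1B (-0.69).

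TUBB3, MAP1B and MAP2, all called lower, are also neuronal genes. Other genes described above as known from neurons or brain were not called as reported. Of these, TUBA1A, TUBB2A and TUBA4A had log2 changes of 0.28, 0.07 and 0.1, and TUBB2B had -0.95. Among the microtubule-binding genes, MAP1A (-0.18, limma adjusted p = 0.53) and MAPT (-0.03, adjusted p = 0.79) were not called. Neuronal and neuroendocrine markers were read beside these genes. Of 14 such markers, 12 had a row, none was called (1 lower without siKIF15 3, and 1 after the GC and length correction), and the median log2 change was -0.07. Their summed signal was between 2532.8 and 2896.3 in siKIF15 and between 2404.2 and 2778.1 in NC, most of it from ENO2, at a mean of 2305.6 in siKIF15 and 2142.1 in NC. SYP averaged 148.1 in siKIF15 and 162.2 in NC, and CHGB 29.6 in siKIF15 and 49.4 in NC, with overlapping groups. NEFL stood at 180.7, 183.8 and 191.9 in siKIF15, against 249.6, 271.6 and 203.4 in NC, lower without overlap but not called (limma adjusted p = 0.13). SYN1, ELAVL4 and NEFM were at 0.0 in all siKIF15 libraries and between 0.0 and 5.3 in NC. DCX averaged 18.2 in siKIF15 and 10.1 in NC, with overlapping groups (log2 change 0.82, limma adjusted p = 0.21). INSM1, NCAM1, CHGA and ELAVL3 averaged 2.0, 7.4, 8.6 and 7.0 in siKIF15 and 0.9, 5.3, 8.0 and 7.0 in NC. Of the 12 markers, 6 had positive and 6 negative log2 changes. The part of these genes in the TUBB3 result was not tested.

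Markers of other cell kinds moved with the label to different degrees. Over all genes tested, 9.66% were called higher and 8.33% lower. Of 7 basal epithelial markers 4 were higher, and in 6 every siKIF15 library lay above NC, against 18.3% of all genes. That count of 6 includes KRT5 and KRT15, which were near 0 and not called. KRT5 stood at 2.7, 5.2 and 1.1 in siKIF15 and KRT15 at 1.8, 2.1 and 0.0, against 0.0 in every NC library. KRT17 averaged 33.7 in siKIF15 and 0.0 in NC, COL17A1 229.7 in siKIF15 and 11.7 in NC, and KRT14 46.1 in siKIF15 and 9.9 in NC. The summed signal was between 3218.2 and 3716.6 in siKIF15 and between 2258.6 and 2518.7 in NC. Most of it was ITGB4, at a mean of 3073.5 in siKIF15 and 2358.8 in NC. TP63, the defining basal factor, was at 4.1 or below in every library. Of 6 leukocyte markers 2 were higher, the lysosomal gene CD68 and the class II gene HLA-DRA, with a summed signal between 3147.7 and 3791.6 in siKIF15 and between 1672.6 and 1908.0 in NC; PTPRC, the pan-leukocyte marker, was at 0.0 in siKIF15 and at most 3.8 in NC. Of 7 fibroblast markers tested 2 were higher (sums between 463.3 and 514.7 in siKIF15 and between 492.3 and 529.8 in NC). Both were low: PDGFRA averaged 5.9 in siKIF15 and 0.8 in NC, and FAP 6.6 in siKIF15 and 0.8 in NC. No fibroblast marker was called without the variance trend or with a mean of at least 10 required. The same held without siKIF15 1, siKIF15 2, NC 1 or NC 3. Of 3 endothelial markers none was called. Without siKIF15 3 the fibroblast and endothelial lists each had 1 higher call. Of the 11 luminal markers 5 were higher and 1 was lower (3 lower after the GC and length correction), with sums between 375187.9 and 389811.4 in siKIF15 and between 342570.0 and 350453.7 in NC. The part of these shifts in the tubulin values was not tested.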

How the data were processed

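RNA-seq of 3 siKIF15 and 3 NC libraries of C4-2B-ENZR cells was analysed, with groups and replicate numbers taken from the sample titles. The values deposited by the authors are a signal per gene symbol, apparently counts adjusted to a common library scale; this was inferred from the values, and reads, depth and counting intervals could not be derived. The organism is human, yet mm8 and mm9, both mouse genome builds, are listed with Bowtie 0.12.2 per the submitters' processing notes; the human build is not given in the sources used here.

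From these values, log2(signal + 1) was fitted with limma 3.58.1 (R 4.3.3; variance trend, no covariate) over the 16548 genes whose mean reached 1 in either group, with Benjamini-Hochberg adjustment and a threshold of 0.05. Sums, shares and ratios were compared with exact two-sided permutation tests over libraries (SciPy 1.17.1). Positions, lengths and coding sequences came from GENCODE release 29, in which 16758 symbols were found, 59 of them by older symbols, and promoters from RefSeq.

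All 10 members, KIF15, the other tubulin genes and the called genes of each further list are named (markers mainly as counts); members and lists were chosen with earlier results of these data known. The alternatives were other pseudocounts, filters and scalings, no variance trend, a replicate block, a GC and length correction, and leaving out each library.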

Additional observations from a re-analysis of the deposited data

How the results depend on the processing

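TUBB3 and TUBB6 kept their direction and their call in all 17 alternatives. Scaling libraries to equal totals gave 1205 higher and 1753 lower calls over all genes (40.7% higher), and the GC and length correction gave 1718 and 3131 (35.4% higher), against 1599 and 1379 (53.7%) as reported; both shifted the median of all genes to -0.06. Calls numbered 1070 (760 higher, 310 lower) without the variance trend, 4849 after the GC and length correction, and 5043 (3243 lower) when the replicate block was added to it; the cause was not tested. Leaving out 1 library gave 1184 to 5077 calls, 767 to 2537 higher and 417 to 2540 lower, with 1 to 5 members higher. Without the trend 1 member was higher, and under the GC and length correction 2 were lower, with or without the block. Signs turned under the GC and length correction, with or without the block, for TUBA1B (-0.04), TUBB2A (-0.15), TUBB4B (-0.12; limma adjusted p = 0.049 and 0.03), TUBA4A (-0.06), KLK3 (-0.14), TBCA (-0.00), TUBA3C (-0.21) and the members' median (-0.02), and under quantile normalization for TUBB (-0.08), TUBB4B (-0.06), TUBA3C (-0.05) and the shares of TUBB (-0.44 points), TUBB2A (0.04) and TUBB4B (0.18). TUBA3C was -0.02 at a pseudocount of 0.5. Over the left-out libraries the log2 change ran from -0.07 to 0.16 for TUBB2A, -0.93 to 0.88 for TUBA3C, -0.4 to 0.14 for TUBB8 and -0.07 to 0.03 for MC1R, and the share difference from -0.0095 to 1.1 points for TUBB, -0.057 to 0.013 for TUBB2A and -1 to 0.056 for TUBB4B. TUBB6 over TUBB3 stayed between 3.03 and 3.4 times higher in siKIF15.

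Same-numbered libraries did not deviate together (correlations 0.03, -0.07 and 0 over 13474 genes), so the numbers were not taken as pairs; the replicate block gave 1654 higher and 1530 lower calls, with 3 members higher and 1 lower. Depth is unknown, so the precision of low members such as TUBB2B rests on 3 libraries a group.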
